A study of Mus musculus with 55 samples.

Results

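A set of 9 members of the Sox gene family that are best known from lineages other than the endocrine pancreas were followed in islets of mice with and without Eed, a core subunit of Polycomb repressive complex 2 (PRC2), which methylates histone H3 at lysine 27. They are Sox1, Sox2, Sox3, Sox14, Sox21, Sox11, Sox8, Sox10 and Sox17, taken as a fixed list of names, 9 of the 20 Sox genes looked up among 47937 counted genes. All 9 were found in the table of read counts of whole islets from male C57B6/J mice. RNA of 16 libraries fell into 6 groups. At 8 weeks of age there were 3 wild-type, 3 heterozygous and 3 Eed -/- libraries (βEedKO), and at 25 weeks 3, 2 and 2. In βEedKO mice both floxed Eed alleles were recombined by Cre under the rat insulin promoter (RIP-cre), so that loss of Eed is aimed at β cells while the other cells of the islet keep it. Whether wild-type mice carried Cre or a floxed allele was not given in the sources used here. Each 25-week βEedKO library pooled islets of several mice, the others of fewer.

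SOX proteins are transcription factors that bind the minor groove of DNA through an HMG box and act together with partner factors that differ between cell types. Sox1, Sox2 and Sox3 (group B1) hold neural progenitors, and Sox2 also pluripotent cells; Sox14 and Sox21 (group B2) are neural repressors. Sox11 (group C) acts in immature neurons and many embryonic tissues, Sox8 and Sox10 (group E) in neural crest, Schwann cells and oligodendrocytes, and Sox17 (group F) in definitive endoderm and endothelium. In the adult pancreas Sox9 is known as the Sox gene of duct cells. Genes of this kind are classical Polycomb targets, kept silent by H3K27me3 in cells that do not use them, often with the activating mark H3K4me3 on the same start site, a combination called bivalent.

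The total count per library was 4645393 to 22925359 reads. Scaling factors of the βEedKO libraries at 25 weeks lay apart, 0.76 in replicate 2 and 1.5 in replicate 3. Summed over 7 β cell markers (Ins1, Ins2, Iapp, Slc2a2, Ucn3, Mafa and Nkx6-1), the level was 122162 to 218223 CPM (counts scaled to library size) in all groups but the 25-week βEedKO libraries, which had 13837 and 17141 CPM, so the defining markers of the tissue were present but low in those. Eed itself, the deleted gene, had a log2 fold change of -1.04 ± 0.22 (SE) at 8 weeks (adjusted p = 0.0881) and -0.69 ± 0.25 at 25 weeks (adjusted p = 0.142) by edgeR's quasi-likelihood test, which in whole islets also counts cells that keep the gene. In bulk RNA, more cells that hold a transcript and more RNA per cell cannot be told apart.

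In wild-type islets, the chromatin of all 8 autosomal members was of bivalent or Polycomb type. The segmentation gives each bin of 200 bp a state letter. State M is bivalent with high H3K27me3, state L bivalent with high H3K4me3, and states N and O are Polycomb repressed. The start sites of Sox1 (chr8:12395295-12400126, + strand), Sox2 (chr3:34650405-34652461, + strand), Sox14 (chr9:99874106-99876170, - strand) and Sox17 (chr1:4490931-4497354, - strand) lay in state M, that of 5.62% of 28877 autosomal genes. Those of Sox21 (chr14:118233232-118237030, - strand), Sox11 (chr12:27334264-27342574, - strand) and Sox8 (chr17:25565892-25570686, - strand) lay in state L, that of 10.5% of genes. That of Sox10 (chr15:79154908-79165240, - strand) lay in state N, that of 8.73%. Sox3 (chrX:60891366-60893430, - strand) lies on a chromosome that was not segmented. Coordinates are of GRCm38, and 6 members (Sox1, Sox2, Sox3, Sox14, Sox21 and Sox11) have a gene length equal to their exon length, that is, no intron.

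Among the autosomal members, Sox2, Sox14 and Sox1 stood in the longest runs of bivalent and Polycomb chromatin, and Sox21 in the shortest. The unbroken run of states K to O (bivalent and Polycomb) around the start site was 97000 bp at Sox2, 76600 bp at Sox14 and 60200 bp at Sox1, longer than at 97.9%, 96.9% and 94.2% of the 1180 protein-coding genes with a start in state M, whose median was 17400 bp. It was 28400 bp at Sox11, 21000 bp at Sox10, 19000 bp at Sox17, 18000 bp at Sox8 and 17800 bp at Sox21. Bivalent states covered 100% of the bodies of Sox1, Sox2, Sox14, Sox21 and Sox17, 74.3% of Sox11, 51.8% of Sox8 and 27.1% of Sox10. Neighbouring genes can share a run, and replicates of the marks were averaged before the segmentation, so these lengths have no error.

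**Figure D1:**
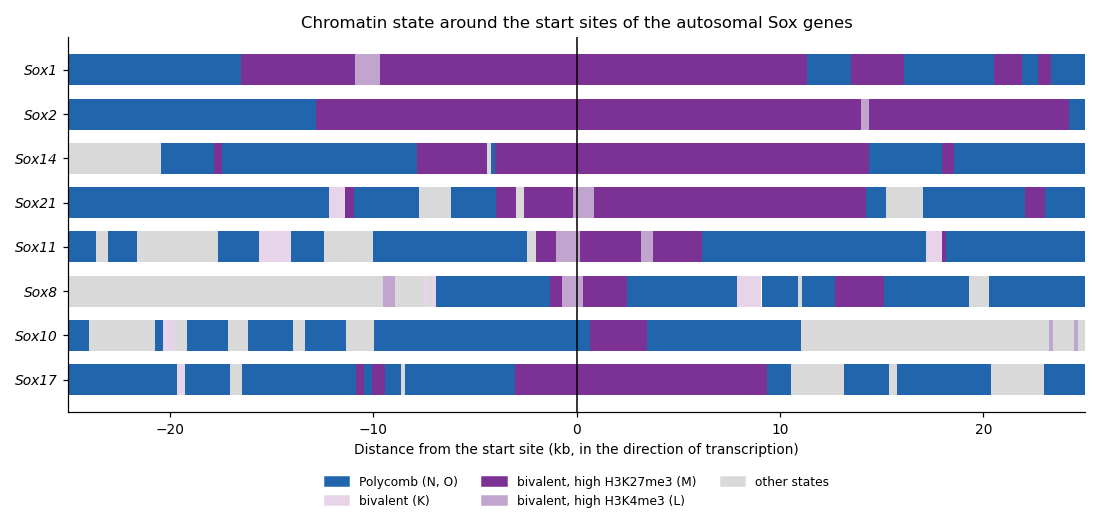
Chromatin states of wild-type islets around the start sites of the 8 autosomal Sox genes, by distance in kb along the direction of transcription, from the segmentation in bins of 200 bp. State M (dark purple) spans the start of Sox1, Sox2, Sox14 and Sox17, state L (light purple) that of Sox21, Sox11 and Sox8, and Polycomb state N (blue) that of Sox10.

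CpG-rich promoters are the usual seat of bivalent chromatin. RefSeq promoters on GRCm38.p6 matched 6 of the members. Their starts can differ from the start sites used above for the states. The Sox1 window (chr8:12395269-12395518) lies mostly inside the gene as given above, and the Sox2 window ends upstream of its start site. The 250 bases before the start held 29 CG in Sox1, 27 in Sox2, 23 in Sox14, 18 in Sox8 and 17 in Sox21 and Sox11, against a median of 6 over 32851 promoters. As many CG as in Sox1 were found in 6.78% of promoters, as in Sox2 in 8.56%, as in Sox14 in 13.3%, as in Sox8 in 21.7%, and as in Sox21 or Sox11 in 23.5%. CG reads the same on both strands. The promoters of Sox2 (chr3:34649745-34649994, + strand) and Sox14 (chr9:99876171-99876420, - strand), both in state M, and of Sox21 (chr14:118237031-118237280, - strand), in states L and M, are shown 5′ to 3′ to let these CG-dense starts be compared, with every CG in capitals.
Sox2: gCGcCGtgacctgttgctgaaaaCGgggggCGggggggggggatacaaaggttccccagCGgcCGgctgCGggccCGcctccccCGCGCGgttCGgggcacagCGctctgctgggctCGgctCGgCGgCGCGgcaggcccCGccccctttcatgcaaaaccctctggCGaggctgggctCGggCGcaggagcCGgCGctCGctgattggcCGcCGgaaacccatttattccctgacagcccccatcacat
Sox14: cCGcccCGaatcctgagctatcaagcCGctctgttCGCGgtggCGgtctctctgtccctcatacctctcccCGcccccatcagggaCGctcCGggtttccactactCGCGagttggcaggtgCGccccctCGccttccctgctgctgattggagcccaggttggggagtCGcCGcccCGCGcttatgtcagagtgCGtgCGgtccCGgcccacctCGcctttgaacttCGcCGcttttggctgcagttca
Sox21: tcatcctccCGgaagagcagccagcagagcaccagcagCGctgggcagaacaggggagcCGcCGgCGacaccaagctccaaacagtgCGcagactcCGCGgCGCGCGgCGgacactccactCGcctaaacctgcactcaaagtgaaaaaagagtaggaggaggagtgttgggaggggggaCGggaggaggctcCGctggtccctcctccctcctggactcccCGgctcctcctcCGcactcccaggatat

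Against wild type at 25 weeks, the largest fitted changes among the members were those of Sox1 and Sox3, which had no read in any control library and were read in βEedKO islets. Sox1 (ENSMUSG00000096014.1), the B1 gene of neural progenitors, had 0 reads in all 9 libraries at 8 weeks, βEedKO included, and in all wild-type and heterozygous libraries at 25 weeks. In the 25-week βEedKO libraries it had 44 and 219 reads, or 3.34 and 8.83 CPM. Where 3 reads summed over wild-type libraries are taken as the floor (0.0973 CPM), its mean of 6.09 ± 3.88 CPM (SD, n = 2) was at least 62.5-fold higher. Of 31405 genes with a read, 0.672% were read in both of these libraries and in no other, Sox1 and Sox14 among them. Only 3 genes did so with at least 44 reads in each: Sox1, Zic2, a zinc-finger factor of the neural tube, and Hoxd11, a homeobox gene of posterior tissues; these were picked after their values were seen. Sox1 passed the test at 25 weeks (log2 fold change 9.54 ± 1.35 (SE), adjusted p = 0.0298), where 4.58% of 18685 genes were called higher, and also against heterozygous libraries (9.64 ± 1.51, adjusted p = 0.0352), which share the βEedKO libraries. The first of these calls was lost with DESeq2 (adjusted p = 0.281), with the replicate number as a block (0.0612), and on leaving out βEedKO replicate 2 (0.085), βEedKO replicate 3 (0.199), wild-type replicate 3 (0.0826) or wild-type replicate 4 (0.0756). The second was lost with DESeq2 (0.334) and without any of the 4 libraries it rests on (βEedKO replicate 2, 0.0879, or 3, 0.151; heterozygous replicate 1, 0.139, or 2, 0.159).

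Sox3 (ENSMUSG00000045179.9), the X-linked B1 gene, was read in all 5 βEedKO libraries and in none of the 11 others. It had 8, 4 and 3 reads (0.379, 0.201 and 0.259 CPM) at 8 weeks, and 20 and 53 reads (1.52 and 2.14 CPM) at 25 weeks. This pattern was shared by 24 genes, 0.0764% of those with a read; unlike Sox1, it included the age of 8 weeks. Compared with that floor for wild type of the same age, the mean was at least 4.84-fold higher at 8 weeks and at least 18.8-fold higher at 25 weeks. Sox3 passed the test at 25 weeks (log2 fold change 7.82 ± 1.26, adjusted p = 0.0184; against heterozygous libraries 7.91 ± 1.36, adjusted p = 0.02). At 8 weeks it did not (5.19 ± 1.13, adjusted p = 0.198; against heterozygous libraries 5.23 ± 1.17, adjusted p = 0.0596), except with wild-type and heterozygous libraries pooled (0.0363) or, against heterozygous libraries, without βEedKO replicate 1 (0.0471). At 25 weeks the call against wild type was lost with the block by replicate number (adjusted p = 0.131) and on leaving out βEedKO replicate 2 (0.0849), βEedKO replicate 3 (0.125), wild-type replicate 3 (0.0651) or wild-type replicate 4 (0.0581). The call against heterozygous libraries was lost without βEedKO replicate 2 (0.0822) or 3 (0.0966) or heterozygous replicate 1 (0.125) or 2 (0.142).

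Sox2 (ENSMUSG00000074637.7), the B1 gene of pluripotent and neural stem cells, had few reads and did not pass the test at either age. At 25 weeks it had 18 and 6 reads (1.37 and 0.242 CPM) in βEedKO, and 0, 1 and 0 in wild-type and 1 and 0 in heterozygous libraries. Both βEedKO libraries were above all 5 controls. Pooled over the libraries, the ratio of βEedKO to wild type was 19.5, with a 95% counting interval of 3.18 to 801, and the fitted log2 fold change was 4.29 ± 2.00 (adjusted p = 0.262). It was 2.60 on leaving out βEedKO replicate 2, 5.07 on leaving out βEedKO replicate 3, 6.64 on leaving out wild-type replicate 3 and 3.68 on leaving out wild-type replicate 4. At 8 weeks the highest value, 14 reads, was in wild-type replicate 3, with 1 and 0 reads in the other wild-type, 0, 2 and 3 in heterozygous, and 4, 0 and 0 in βEedKO libraries. The groups overlapped there (log2 fold change -1.95 ± 1.59, adjusted p = 0.862), and the value was 1.33 with the replicate block, which leaves that library without a partner.

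Both B2 genes had their highest group mean in 25-week βEedKO islets. Sox14 (ENSMUSG00000053747.9), a repressor of interneuron and brainstem lineages, had 1 and 5 reads in the 25-week βEedKO libraries (0.076 and 0.201 CPM) and 0 in every other library. It was too low for the filter and was not tested. Its mean of 0.139 CPM was 1.43-fold the wild-type floor of 0.0973 CPM, but replicate 2 (0.076 CPM) lay below that floor. Sox21 (ENSMUSG00000061517.8), which counteracts the B1 genes in neural progenitors, was read in all 5 βEedKO libraries. It had 4, 17 and 8 reads (0.19, 0.852 and 0.692 CPM) in βEedKO at 8 weeks against 0 in all 3 wild-type libraries, at least 9.99-fold above their floor. A single heterozygous library (replicate 1) had 7 reads (0.487 CPM), within the βEedKO range, and the other two had 0. At 25 weeks βEedKO had 10 and 46 reads (0.76 and 1.85 CPM), wild type 0, 1 and 0, and heterozygous 0 and 2. The pooled ratio to wild type was 45.5 (95% counting interval 7.83 to 1.83e+03). Sox21 missed the threshold at 25 weeks (log2 fold change 5.01 ± 1.25, adjusted p = 0.0518) and at 8 weeks (6.22 ± 1.36, adjusted p = 0.139), but passed at 25 weeks with DESeq2 (0.039), without the filter (0.0418), with pooled controls (0.032), and on leaving out the 8-week libraries βEedKO replicate 1 (0.0305) or wild-type replicate 1 (0.0451). At 8 weeks it passed with DESeq2 (0.0314). Against heterozygous libraries it was not called, with 4.36 ± 1.74 at 25 weeks (adjusted p = 0.15) and 1.86 ± 1.30 at 8 weeks (adjusted p = 0.377).

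**Figure D2:**
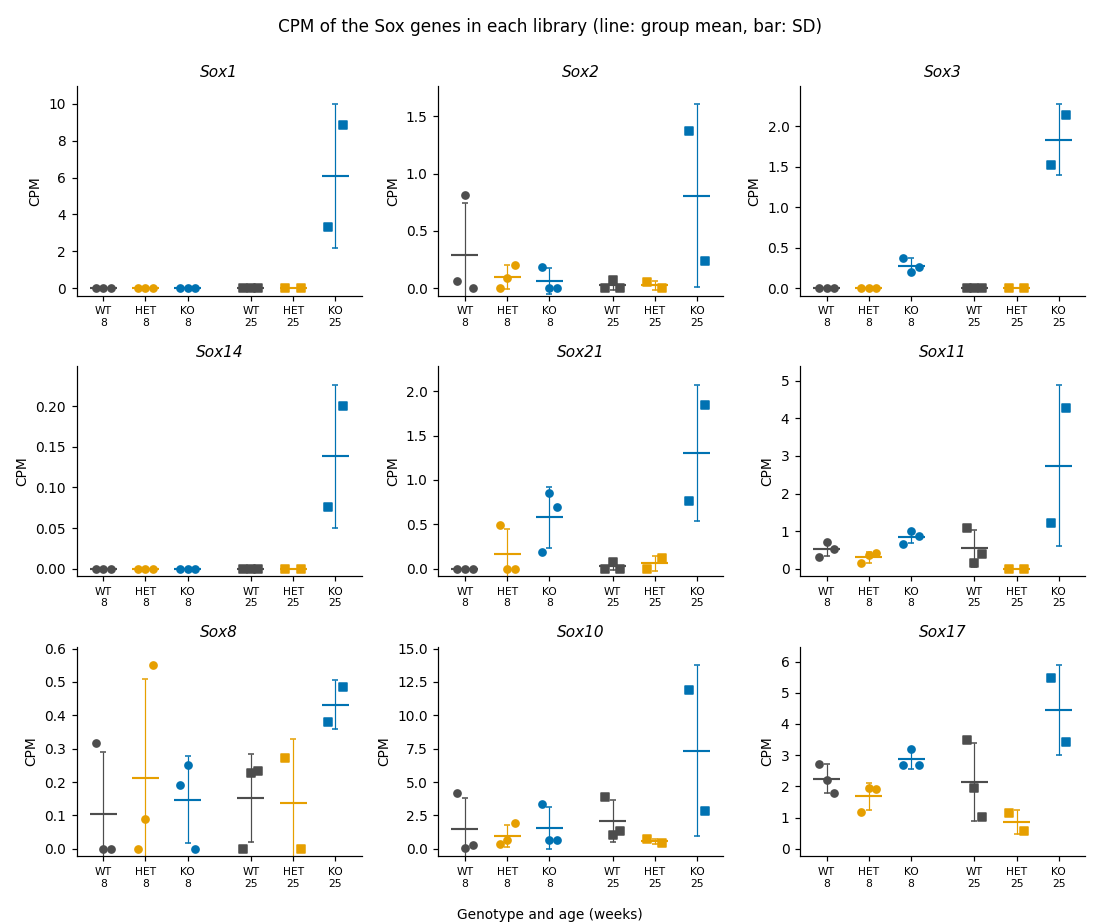
CPM of each of the 9 Sox genes in each of the 16 libraries, by genotype (grey wild type, orange heterozygous, blue βEedKO) and age in weeks (circles 8, squares 25), with the mean (line) and SD (bar) of each group, and an axis of its own per gene. Sox1 is at 0 outside the 25-week βEedKO libraries (3.34 and 8.83 CPM), and Sox3 is above 0 in βEedKO libraries of both ages only.

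Sox11 (ENSMUSG00000063632.6), the group C gene of differentiating neurons, had a low level in most controls. At 8 weeks it had 5, 12 and 10 reads in wild type, 2, 8 and 6 in heterozygous and 14, 20 and 10 in βEedKO libraries, and the mean was 0.515 ± 0.191, 0.302 ± 0.144 and 0.844 ± 0.171 CPM (SD, n = 3 each). Wild type and βEedKO overlapped at this age. At 25 weeks wild type had 5, 2 and 5 reads (1.09, 0.15 and 0.387 CPM), both heterozygous libraries had 0, and βEedKO had 16 and 106 reads (1.22 and 4.27 CPM). Against heterozygous libraries Sox11 passed the test (log2 fold change 8.50 ± 1.38, adjusted p = 0.00333), and the mean was at least 32.5-fold above their floor. Against wild type it did not (2.45 ± 0.82, adjusted p = 0.114), except with DESeq2 (0.0489) or with both controls pooled (0.0302). This value was 1.27 (adjusted p = 0.634) on leaving out βEedKO replicate 3, 3.07 on leaving out βEedKO replicate 2 and 3.27 (adjusted p = 0.0522) on leaving out wild-type replicate 2. Heterozygous and wild-type libraries did not differ in Sox11 after adjustment over all genes (-5.97 ± 1.43, unadjusted p = 0.00121, adjusted p = 1).

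The group E genes were present in controls at uneven levels. Sox8 (ENSMUSG00000024176.10), which overlaps Sox10 in glia and Sox9 in the testis, had 0 to 8 reads in each library outside the 25-week βEedKO group, which had 5 and 12. It did not pass the filter; the pooled ratio to wild type at 25 weeks was 2.3, with a 95% counting interval of 0.865 to 7.12. Sox10 (ENSMUSG00000033006.9), the master factor of neural crest and Schwann cells, varied widely within groups. At 8 weeks it had 66, 1 and 5 reads in wild type, 5, 15 and 28 in heterozygous and 71, 13 and 8 in βEedKO libraries, so that replicate 1 was high in both wild type (4.18 CPM) and βEedKO (3.36 CPM). At 25 weeks wild type had 3.92, 1.05 and 1.31 CPM, heterozygous 0.708 and 0.408, and βEedKO 11.9 and 2.82 CPM. The upper wild-type value exceeded the lower βEedKO value, and the difference did not pass the test (log2 fold change 1.83 ± 1.34, adjusted p = 0.501; against heterozygous libraries 3.70 ± 1.55, adjusted p = 0.16, or 0.0492 with DESeq2). The value against wild type was 0.42 on leaving out βEedKO replicate 2, 2.53 on leaving out βEedKO replicate 3 and 2.58 on leaving out wild-type replicate 2. At 8 weeks the value was 0.11 ± 1.21 (adjusted p = 0.995) and turned to -1.12 without βEedKO replicate 1, to -0.45 without wild-type replicate 3 and to -0.41 without wild-type replicate 4.

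Markers of glia were measured beside Sox10. Over 8 Schwann and neural crest markers (Mbp, Erbb3, S100b, Foxd3, Ednrb, Ngfr, Cdh19 and Gfap), the summed level was 184 and 145 CPM in the 25-week βEedKO libraries, 95.4 to 142 CPM in wild type and 96.4 to 97.8 CPM in heterozygous ones, so that both βEedKO libraries lay above the controls of that age. At 8 weeks it was 121, 238 and 287 CPM in wild-type replicates 1, 3 and 4. Of the 8 markers, 5 (Erbb3, Foxd3, Ngfr, Cdh19 and Gfap) were highest in replicate 1, the library with the most Sox10 of these 3, whereas Mbp, which made up most of the sum, had 69.4, 181 and 228 CPM. In 25-week βEedKO replicate 2, with the most Sox10 of all 16 libraries, Erbb3 (33.6 CPM), Ngfr (8.51), Cdh19 (23) and Gfap (5.47) were also highest of the 16. Mbp (76.1 CPM), Ednrb (20.9), S100b (4.87) and Foxd3 (11.4) were higher in some other library. All 8 had reads in every group and were tested. None was called against wild type at either age by edgeR's quasi-likelihood test (1 at an unadjusted p under 0.05 at each age, 0 by DESeq2 at each age). In that comparison the 8 had a median of 1.08 on the log2 scale at 25 weeks, against 0.0289 over all genes. By the same test, Foxd3 (5.64 ± 1.53, adjusted p = 0.0377) and Ngfr (3.76 ± 0.94, adjusted p = 0.0272) were called higher than in heterozygous libraries at 25 weeks, where 5.41% of genes were. Ednrb was called higher than in heterozygous libraries at 8 weeks (2.17 ± 0.58, adjusted p = 0.0494), where 3.6% of genes were. Against wild type of that age the change of Ednrb was 0.48 ± 0.62 (adjusted p = 0.94). It had 10.9, 42 and 48.1 CPM in wild-type, 7.38, 14.3 and 9.57 in heterozygous and 13.2, 66.3 and 61.8 in βEedKO libraries. The other markers were not called in these comparisons. The part of such cells in the Sox10 values was not tested. Of 7 genes of the Sox10 program in glia and pigment cells (among them Erbb3, Mitf and Ret), all were tested. None was called against wild type at 25 weeks (1 at an unadjusted p under 0.05, 0 by DESeq2), with a median log2 fold change of 0.0231 against that same 0.0289. Against heterozygous libraries of that age edgeR called Dct, of pigment cells, lower (-1.76 ± 0.44, adjusted p = 0.0273). By correlation of log2 CPM over the 16 libraries, the genes nearest to Sox10 among 18827 were Col28a1 (r = 0.94), Tmc8 (0.92) and Gas6 (0.91); these libraries share groups, depth and makeup.

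Sox17 (ENSMUSG00000025902.13), the group F gene of endoderm and endothelium, was, like Sox10, read in all 16 libraries. It had 2.73, 2.21 and 1.8 CPM in wild type, 1.18, 1.95 and 1.93 in heterozygous and 2.7, 3.21 and 2.68 in βEedKO libraries at 8 weeks. At 25 weeks it had 3.49, 1.96 and 1.01 CPM in wild type, 1.14 and 0.583 in heterozygous and 5.47 and 3.43 in βEedKO libraries. Wild type and βEedKO thus overlapped at both ages, with log2 fold changes of 0.36 ± 0.46 (adjusted p = 0.94) and 1.04 ± 0.51 (adjusted p = 0.293). Against heterozygous libraries Sox17 passed the test at 25 weeks (2.35 ± 0.57, adjusted p = 0.0237) but not at 8 weeks (0.76 ± 0.45, adjusted p = 0.298). That call was lost with scaling by library size alone (0.0508) and without βEedKO replicate 2 (0.139) or heterozygous replicate 1 (0.0822) or 2 (0.246).

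Markers of endothelium were measured beside Sox17. Over 10 endothelial markers (Pecam1, Cdh5, Kdr, Tek, Tie1, Plvap, Emcn, Egfl7, Eng and Esam), it was 536 and 414 CPM in βEedKO, 511 and 515 in heterozygous and 421 to 438 in wild-type libraries at 25 weeks, and 281 to 516 at 8 weeks. All 10 had reads in every group, and none was called at 25 weeks by edgeR's quasi-likelihood test (3 at an unadjusted p under 0.05, 1 by DESeq2); the part of endothelial cells in the Sox17 values was not tested. Of 9 genes of definitive endoderm, 6 were tested against wild type. Gata6, an endoderm factor of the early pancreas, was called higher at 25 weeks by edgeR (log2 fold change 1.06 ± 0.20, adjusted p = 0.0105), where 4.58% of genes were. Gata4 was not called (2.32 ± 0.87, adjusted p = 0.158). The Gata6 call was lost with scaling by library size alone (0.0524) and on leaving out βEedKO replicate 2 (0.0516), βEedKO replicate 3 (0.102) or wild-type replicate 3 (0.058). Mean Gata6 was 21.1 CPM in wild-type, 12.6 in heterozygous and 23.2 CPM in βEedKO libraries at 8 weeks, and 10.8, 11.2 and 23.5 CPM at 25 weeks. Against heterozygous libraries edgeR called Gata6 higher at 25 weeks (1.08 ± 0.28, adjusted p = 0.0341; 5.41% of genes). The same held at 8 weeks (0.89 ± 0.23, adjusted p = 0.0452; 3.6% of genes). The median of the 6 at 25 weeks was 0.719, against 0.0289 over all genes. The genes nearest to Sox17 over the 16 libraries were Rab32, Apod and Itm2a, each with r = 0.91.

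**Figure D3:**
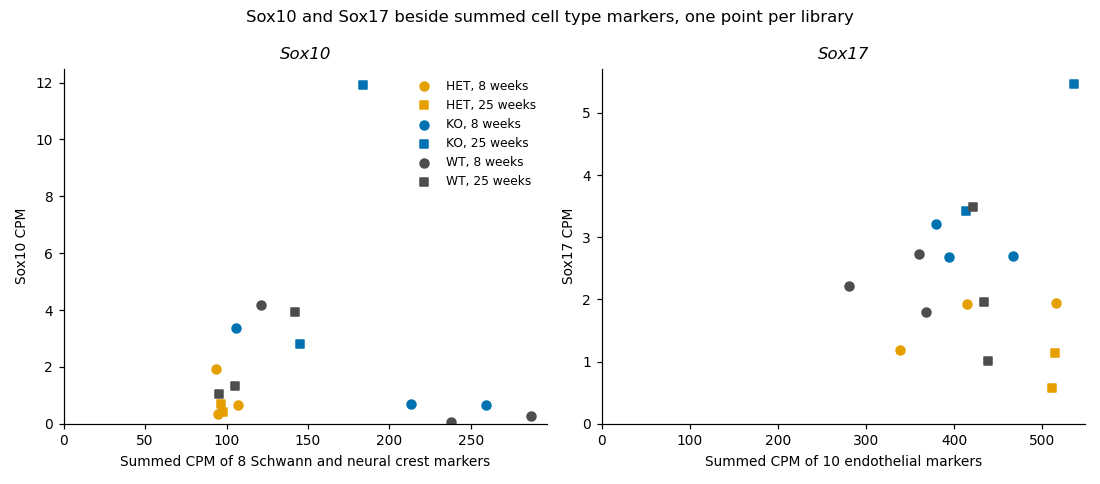
Sox10 CPM against the summed CPM of 8 Schwann and neural crest markers, and Sox17 CPM against that of 10 endothelial markers, with a point for each library, coloured by genotype (grey wild type, orange heterozygous, blue βEedKO) and shaped by age. The highest Sox10 and Sox17 values, 11.9 and 5.47 CPM, belong to the same 25-week βEedKO library, whose marker sums are 184 CPM, within the range of the others, and 536 CPM, above it.

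The order of the members differed between genotypes. Per kb of exon, the mean level in wild-type islets at 25 weeks was 0.687 ± 0.52 CPM for Sox10, 0.45 ± 0.262 for Sox17, 0.0652 ± 0.0588 for Sox11 and 0.0489 ± 0.0424 for Sox8, with Sox2 and Sox21 at a single read each and Sox1, Sox3 and Sox14 at 0 (SD, n = 3). In 25-week βEedKO islets Sox10 was again the highest, at 2.42 ± 2.11 CPM per kb, followed by Sox1 at 1.26 ± 0.802, Sox17 at 0.932 ± 0.303 and Sox3 at 0.885 ± 0.211 (SD, n = 2). Sox1 and Sox3, undetected in the controls, were thus at levels like that of Sox17. Sox2 (0.391 ± 0.387), Sox21 (0.344 ± 0.204), Sox11 (0.33 ± 0.26), Sox8 (0.139 ± 0.0235) and Sox14 (0.0672 ± 0.043) came after them. Neighbours in this order lay within their SDs of each other, save Sox8 and Sox14. At 8 weeks Sox17 and Sox10 led in every genotype, at 0.47 ± 0.0973 and 0.492 ± 0.762 CPM per kb in wild type, 0.354 ± 0.0914 and 0.321 ± 0.274 in heterozygous and 0.6 ± 0.0626 and 0.514 ± 0.509 in βEedKO libraries, and in βEedKO they were followed by Sox21 (0.152 ± 0.091) and Sox3 (0.135 ± 0.044; SD, n = 3 each).

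The 2 βEedKO libraries of 25 weeks did not hold the members in equal amounts. Replicate 3 had more Sox1, Sox3, Sox14, Sox21, Sox11 and Sox8, and replicate 2 more Sox2, Sox10 and Sox17. Summed over the 5 group B genes, they had 93 reads (7.07 CPM) in replicate 2 and 329 reads (13.3 CPM) in replicate 3, against 0 to 2 reads in the wild-type and heterozygous libraries of that age. Replicate 2 also had the highest acinar marker sum of all libraries, 237335 CPM, and replicate 3 the lowest, 6517 CPM, and their mesenchyme marker sums were 370 and 246 CPM against 43 to 124 in the controls of that age. The part of these cells in the members' values was not tested. All 9 members had reads in both libraries, while each other library had reads of 3 to 7 members.

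**Figure D4:**
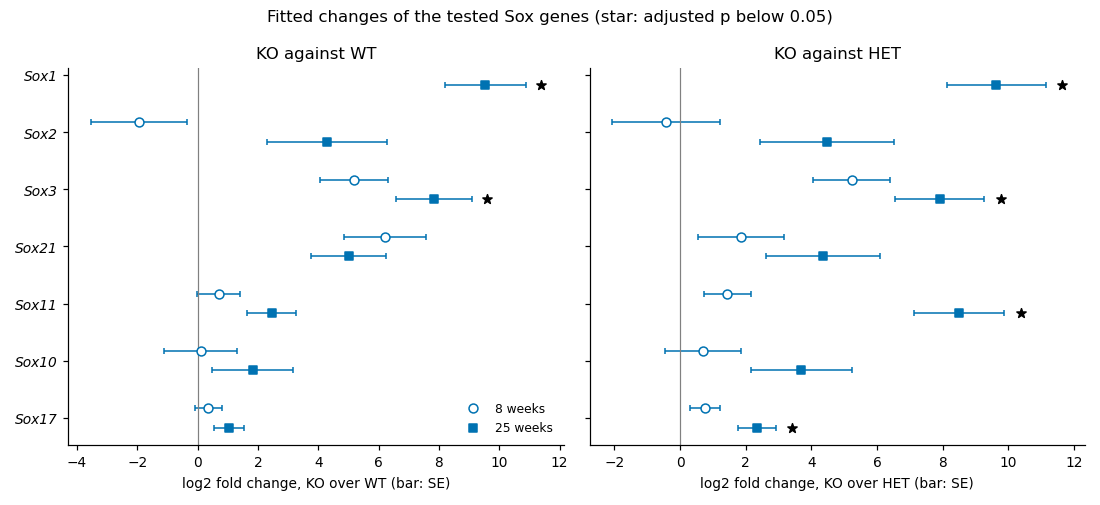
Fitted log2 fold changes with their SE (bars) of the 7 Sox genes that passed the filter, βEedKO over wild type on the left and over heterozygous on the right, at 8 weeks (open circles) and 25 weeks (filled squares), with stars where the adjusted p was under 0.05. Sox1 has no 8-week point since it had no reads. Stars mark Sox1 and Sox3 against both controls, and Sox11 and Sox17 against heterozygous libraries only, all at 25 weeks.

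Counted over the members, the calls all lay at 25 weeks. Of the 9 members 7 passed the filter, Sox1, Sox3 and Sox21 mainly through the group in which they are high, so the counts describe and do not support. Against wild type, 2 members (Sox1 and Sox3) were called higher at 25 weeks, where 4.58% of genes were, 0 with the replicate block, 3 with DESeq2 and 4 with pooled controls. At 8 weeks edgeR called none, where 0.428% of genes were called higher, with 2 members at an unadjusted p under 0.05 and 1 called by DESeq2. Against heterozygous libraries, 4 (Sox1, Sox3, Sox11 and Sox17) were called at 25 weeks, where 5.41% of genes were, and none at 8 weeks, where 3.6% were (1 at an unadjusted p under 0.05, 0 by DESeq2). All βEedKO libraries lay above all wild-type libraries in 7 of the 9 members at 25 weeks (20.7% of 31405 genes with a read) and in 2 of 9, Sox3 and Sox21, at 8 weeks (4.7%). Of tested genes with a start in state M, 27.1% were called higher than in wild type at 25 weeks, and of those with a start in state L 13.9%.

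Age and the heterozygous genotype were compared as well. Within βEedKO, no member passed the test between 25 and 8 weeks with edgeR, where 1.02% of genes were called higher (2 members at an unadjusted p under 0.05, 0 by DESeq2). Sox1, from 0 reads to 44 and 219, came nearest (log2 fold change 9.54 ± 1.23, adjusted p = 0.0571), and Sox3 had 2.62 ± 0.77 (adjusted p = 0.204). The change of the βEedKO effect between ages, tested as an interaction, called no member with edgeR (0.198% of genes in either direction, 1 member, Sox2, at an unadjusted p under 0.05, 0 by DESeq2). For Sox1 and Sox3 this interaction gave no usable standard error, since wild type had 0 reads at both ages. No member was called with edgeR between ages in wild type, or between heterozygous and wild type at 8 or 25 weeks (0, 0 and 2 members at an unadjusted p under 0.05, the last being Sox11 and Sox17, and 0 by DESeq2), and 0% of genes were called in any of these comparisons.

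Transcripts that overlap the members were checked since the strand setting of the counting was not given, so that reads in shared exons could be ascribed to either gene or dropped. The noncoding genes Sox1ot and Sox2ot, named for their overlap, share 0 exon bases with Sox1 and Sox2. On the same strand the miRNA gene Gm25239, also counted, shares 1.78% of the exon bases of Sox1, and its reads were not looked up. Sox1ot had 2 and 1 reads in the 25-week βEedKO libraries and 0 to 5 elsewhere, while Sox2ot had 8 and 13 there and 0 to 4 elsewhere. On the opposite strand Gm4675 shares 18.8% of the exon bases of Sox21, Gm37587 16.8% of those of Sox17, and 2810468N07Rik 10.6% of those of Sox8. Gm4675 and Gm37587 had 0 to 2 reads in every library. 2810468N07Rik, antisense to Sox8, had 31 and 38 reads in 25-week βEedKO against 0 to 4 in the controls of that age, and 29, 11 and 7 against 0 to 8 at 8 weeks, more than Sox8 itself in every βEedKO library.

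Proteins of the SOX family act with POU and PAX partners, and several of these genes were higher in 25-week βEedKO islets. Of 7 partner genes looked up, 6 were tested against wild type, 4 were called higher, where 4.58% of all genes were, and 1 lower, with a median log2 fold change of 4.87 (4.87 also with the 2 genes at 0 in wild type set to their bound) against 0.0289 over all genes. Pou3f3, Pax3, Pou3f2 and Pou3f4 passed the filter mainly through the βEedKO libraries, in which they are high. The count of calls and the median of the partners thus describe and do not support. Pou3f3, a class III POU factor that binds beside B1 proteins in neural progenitors, had 0 reads in 25-week wild type and 12.5 and 14.1 CPM in βEedKO of that age, at least 137-fold higher (adjusted p = 0.00139). Pax3, a partner of Sox10 in neural crest, had 0 in all controls of both ages and 11.6 and 10.6 CPM in 25-week βEedKO, at least 114-fold above the wild-type floor (adjusted p = 0.00417). Pou3f4, also of class III, was called at 5.02 ± 1.02 on the log2 scale (adjusted p = 0.0168), with 1 read over the wild-type libraries and 14 and 39 in the βEedKO libraries. At 8 weeks Pou3f4 had 8, 16 and 8 reads in wild type and 28, 24 and 5 in βEedKO. From 8 to 25 weeks edgeR fitted -3.99 ± 1.00 within wild type (adjusted p = 0.486) and 0.36 ± 0.73 within βEedKO (adjusted p = 0.854). Pax6, a partner of Sox2 in lens and itself a factor of islet hormone cells, fell by 1.97 ± 0.29 on the log2 scale (adjusted p = 0.00347), from 327, 413 and 360 CPM to 76.8 and 117 CPM. The call of Pou3f4 was lost with the block (0.0747) and on leaving out βEedKO replicate 2 (0.0521), βEedKO replicate 3 (0.0972) or wild-type replicate 3 (0.0801), and that of Pax6 with scaling by library size alone (-1.64, adjusted p = 0.0866). The remaining called gene, Pou3f1, lost its call with the block (0.0585) and on leaving out βEedKO replicate 3 (0.214) or any wild-type library of that age (0.0505 to 0.142 for replicates 2, 3 and 4). At 8 weeks none of the 6 was called against wild type by edgeR (3 at an unadjusted p under 0.05, 2 by DESeq2), while against heterozygous libraries Pou3f1 (6.19 ± 1.00, adjusted p = 0.00752) and Pou3f3 (6.06 ± 1.01, adjusted p = 0.0159) were called higher.

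**Figure D5:**
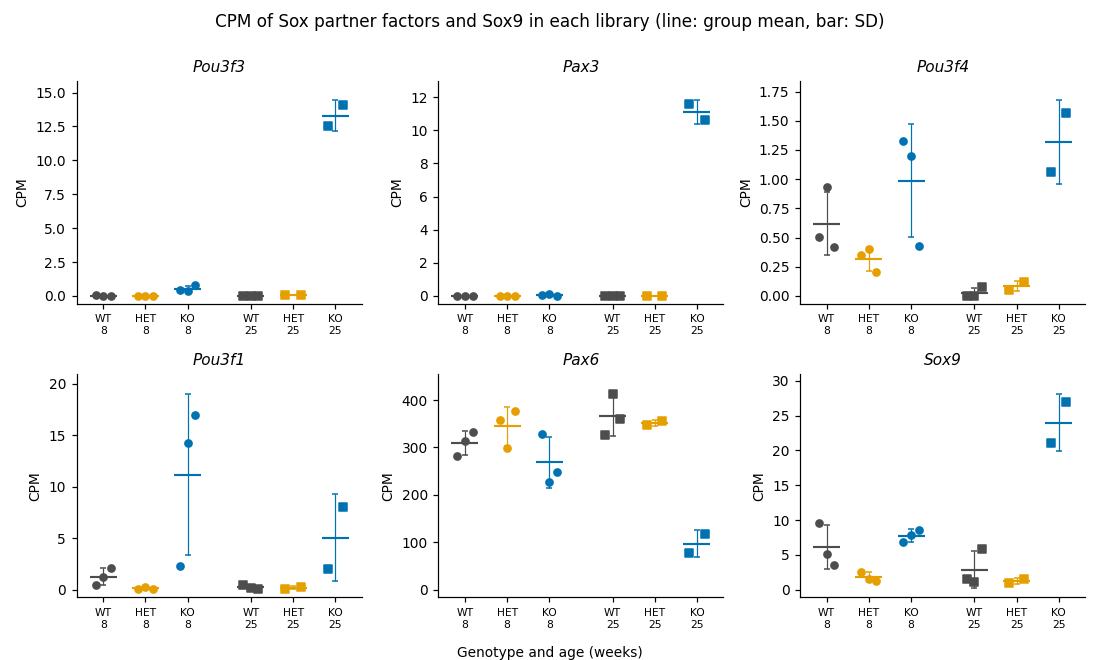
CPM of the 5 called partner genes Pou3f3, Pax3, Pou3f4, Pou3f1 and Pax6, and of Sox9, in each of the 16 libraries, by genotype and age in weeks, with the mean (line) and SD (bar) of each group, and an axis of its own per gene. Pou3f3 and Pax3 stand at 10.6 to 14.1 CPM in the 25-week βEedKO libraries, and Pax6 at 76.8 and 117 CPM below its controls.

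Among genes downstream of the B and C groups in neural cells (Nes, Msi1, Hes5, Fabp7, Notch1, Tubb3, Dcx and Elavl3), 7 of 8 were tested at 25 weeks and Elavl3, an RNA-binding protein of neurons, was called higher (log2 fold change 4.82 ± 0.72, adjusted p = 0.00394). It had 16.3 and 23.5 CPM in βEedKO against 1.09, 0.376 and 0.696 CPM in wild type, and kept its call without any of the 11 libraries of the fit left out in turn (adjusted p 0.00188 to 0.031). The median of the 7 was 0.183. Of 5 neuron markers (Snap25, Elavl4, Stmn2, Tubb3 and Uchl1), which endocrine cells also express, none was called against wild type at 25 weeks by edgeR (2 at an unadjusted p under 0.05, 1 by DESeq2). Against heterozygous libraries of that age Uchl1 was called higher (2.33 ± 0.62, adjusted p = 0.0351), where 5.41% of genes were. The sum of the 5 was 295 and 360 CPM in βEedKO and 299 to 369 CPM in the controls of that age.

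The other Sox genes were looked up beside the 9. Of 11 looked up, 9 were tested and 1, Sox9, was called higher than in wild type at 25 weeks (log2 fold change 2.98 ± 0.62, adjusted p = 0.0189), with 21.1 and 26.9 CPM against 1.53, 1.13 and 5.88. Leaving out βEedKO replicate 2 (0.0628), βEedKO replicate 3 (0.107), wild-type replicate 2 (0.0522) or wild-type replicate 3 (0.0696) ended the call. Sox4, Sox12 and Sox13, with means of 10.8, 22.3 and 20.9 CPM in 25-week wild-type islets, had log2 fold changes of 0.84 ± 0.43, -0.14 ± 0.26 and -0.48 ± 0.71 and were not called (adjusted p = 0.312, 0.833 and 0.775). The start sites of Sox4 and Sox12 lay in state B, at active starts, and that of Sox13 in state A. Of the 10 with a state, 6 started in bivalent chromatin, Sox5, Sox7, Sox9 and Sox30 in state L and Sox6 and Sox18 in state M. Among these Sox6 (1.87 ± 0.55, adjusted p = 0.0754) and Sox5 (1.24 ± 0.48, adjusted p = 0.172) were not called against wild type at 25 weeks, and Sox5 was called against heterozygous libraries (1.79 ± 0.52, adjusted p = 0.0498). The median of the 9 against wild type at 25 weeks was 0.919, against 0.0289 over all genes. Sox9 was also called higher than in heterozygous libraries at 25 weeks (4.23 ± 0.73, adjusted p = 0.00385; 5.41% of genes) and 8 weeks (2.09 ± 0.55, adjusted p = 0.0478; 3.6% of genes). Against wild type at 8 weeks it was not called (0.37 ± 0.54, adjusted p = 0.946). Duct markers were higher as a sum in the 25-week βEedKO libraries, 756 to 847 CPM against 355 to 441 CPM in controls of that age, with 2 of 6 called; their part in the Sox9 value was not tested.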

How the data were processed

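The authors deposited raw read counts per gene for 16 islet libraries (Illumina TruSeq RNA v2), made with TopHat 2.0.13 on GRCm38 and featureCounts of Subread 1.5.0-p1 on Gencode M9; the strand setting is not given in the sources used here. The authors also deposited an EpicSeg segmentation in bins of 200 bp, with state letters and no measured level, on 19 autosomes. Single-cell, ChIP-seq and human files were not used here. No count column was left unused (0).

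Of 47937 genes, 47224 were matched by identifier to a later Gencode release of that build, used for symbols, positions and start sites, and 713 were not. Counts were fitted in R 4.3.3 with edgeR 4.0.16 (TMM, filterByExpr, quasi-likelihood test, Benjamini-Hochberg over all genes; called under 0.05), on 11 wild-type and βEedKO libraries in 4 groups (18685 genes) and on all 16 for heterozygous comparisons (18828 genes). SE was taken as |log2 fold change| over √F; where a group has no reads, the fitted change rests on edgeR's prior count. CPM use TMM-scaled sizes of all 16 libraries. Alternatives were DESeq2 1.42.0, other scalings, no filter, pooled controls, a replicate block and leaving out libraries. Counting intervals (95%) and floors of 3 reads cover counting error only. Bounds of the fold set the mean of the βEedKO libraries over the floor, without the spread between these libraries. The scripts were tested on simulated counts.

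All 9 Sox genes were named, and of the other lists the genes called at 25 weeks (at most 4 by size) or at 5 CPM or more in a group; the genes most like a member needed a mean of 1 CPM. Of the Schwann and Sox10 lists, 2 genes are not reported here and were left out of counts and sums whatever their values. The members and lists were chosen with earlier results of these data known. The numbers of the libraries are not said to mark litters. Wild-type and βEedKO libraries of the same number deviated together (correlations 0.457 and 0.163 at 8 weeks, 0.176 and 0.255 at 25 weeks, over 18828 genes), but so did pairs with unlike numbers at 8 weeks, wild-type 3 with βEedKO 5 (0.45) and wild-type 4 with βEedKO 5 (0.329). The replicates are called biological by the study. No libraries of a group held the same counts within sampling noise (chi-square over degrees of freedom 31.03 to 591.6).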

Additional observations from a re-analysis of the deposited data

How the results depend on the processing

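The count of members called against wild type at 25 weeks (2) was 0 with the replicate block and 4 with both kinds of control pooled, and 0 to 3 with a library left out; at 8 weeks (0) it was 1 with DESeq2 and 1 with pooled controls. The count between ages within βEedKO (0) was 1 with scaling by library size alone and 1 without the filter, and 0 to 1 with a library left out. Against heterozygous libraries it was 0 to 1 at 8 weeks (0) and 1 to 2 at 25 weeks (4) with a library left out. The block changed no call of a member beyond Sox1 and Sox3 at 25 weeks; pairs not numbered alike add nothing to it, and heterozygous comparisons other than that with wild type at 8 weeks share too few numbers for it. No direction of a called member reversed under the alternatives run. Among uncalled values at 8 weeks, Sox2 against wild type was 1.33 with the block, and against heterozygous libraries 0.48 without heterozygous replicate 3 and 0.15 without βEedKO replicate 4 (-3.75 to 0.48 over all such fits); Sox10 against wild type was -1.12 without βEedKO replicate 1, -0.45 without wild-type replicate 3 and -0.41 without wild-type replicate 4 (-1.12 to 3.18 over all such fits), and against heterozygous libraries -0.53 without βEedKO replicate 1 (-0.53 to 1.65 over all such fits). The cause was not tested. Scaling by library size alone moved the median log2 fold change of all genes from 0.029 to 0.265 at 25 weeks and from 0.004 to 0.205 at 8 weeks against wild type. The start site, the gene body and the window of 1000 bases each side put 7, 6 and 7 of the 8 autosomal members in a bivalent state. Where wild-type libraries had 0 reads, as for Sox1, Sox3 and Sox14 at 25 weeks, the depth allows only a lower bound of the fold.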
